A study of Mus musculus with 7 samples.

Results

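Chemokine ligand and receptor genes were followed in the soleus, a slow-twitch hindlimb muscle, of dystrophic mice aged 60 days. The members were chosen by gene symbol alone: every row of the count table named as a Ccl, Cxcl or Cx3cl1 ligand or as a Ccr, Cxcr, Cx3cr1 or Xcr1 receptor. This gave 56 of the 29869 rows, 37 ligands and 19 receptors. Whole-muscle RNA was sequenced from 7 animals, 4 labelled mdx and 3 labelled mdx/Runx1f/f. All 7 carried mdx, the mutation of the dystrophin gene that models Duchenne muscular dystrophy, and the second group also carried floxed alleles of the transcription factor gene Runx1. Which Cre acted, and which exons the loxP sites flank, was not stated in the sources used here.

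Chemokines are small secreted proteins that guide migrating leukocytes along gradients held on cell surfaces and matrix. They are classed as CC, CXC, CX3C or XC by the spacing of their first cysteines, and they act through membrane receptors that couple to inhibitory G proteins. Atypical receptors bind chemokines without that coupling and remove or redistribute them. In dystrophic muscle, repeated fibre damage draws in monocytes through Ccr2 and its ligands, and these cells become macrophages that clear debris and shape repair and fibrosis.

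The libraries held 16218306 to 20847902 counts. Runx1, the floxed gene, stood at 274, 273, 235 and 201 normalised counts (counts divided by a size factor for each library) in the libraries labelled mdx, replicates 1 to 4, and at 919, 925 and 596 in those labelled mdx/Runx1f/f, replicates 1 to 3. Its transcript was thus higher in the group labelled as floxed (log2 fold change 1.74, SE 0.18), and the cause of that rise was not tested. A gene-level count also covers exons that may lie outside a deleted part, so it need not check that allele. Group names come from the sample titles. The description field ties most animal numbers to other samples, so that by it the groups would be animals 358 to 363 and animals 373 to 375, and the series design text gives the group sizes the other way round. Every direction below rests on the titles and would turn if the group labels were exchanged. The groups are called by the titles. Animal numbers fall into a series from 358 to 363 (mdx replicates 1 and 2, mdx/Runx1f/f replicates 1 and 2) and a series from 373 to 375 (mdx replicates 3 and 4, mdx/Runx1f/f replicate 3).

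Of the 56 members, 5 rose and 0 fell in the second group. A call here is a Benjamini-Hochberg adjusted p under 0.05 over all 14033 genes tested, from the quasi-likelihood test of edgeR, and no member had a lower call by DESeq2 or limma-voom either, or an unadjusted p under 0.05 in that direction. The risen genes were the ligand genes Cxcl16 and Cxcl14 and the receptor genes Cx3cr1, Cxcr7 and Ccr7. Only 28 members had enough reads to be tested, so the calls were 17.9% of those tested, against 5.10% called higher and 1.85% called lower among all tested genes. A further 6 tested members, or 21.4%, had an unadjusted p below 0.05 without passing the adjustment, a share close to the 22.5% of all tested genes, though all 6 were higher, against 12% of all. The median log2 fold change was 0.99 over the 28 tested members and -0.0020 over all tested genes. The filter kept 6 members (Ccl22, Ccl7, Ccr10, Ccr7, Cxcr3 and Xcr1) that did not reach its minimum in 3 libraries labelled mdx, so the median, the share of calls and the share of genes without overlap (given next, with Ccr7, Ccr10 and Cxcr3 among its 9) carry that selection. By kind, 2 of 17 tested ligands and 3 of 11 tested receptors were called. The calls shared out by class as 2 of 7 CXC ligands, 0 of 9 CC ligands, 1 of 5 CC receptors, 1 of 4 CXC receptors and the receptor Cx3cr1. All 3 libraries labelled mdx/Runx1f/f lay above all 4 labelled mdx in 9 of the 28, or 32.1%, against 13.9% of all tested genes. They lay below in 0 of the 28, against 13.6% of all. DESeq2 on the same counts called 7 members higher, where it called 11.1% of all genes it tested.

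**Figure D1:**
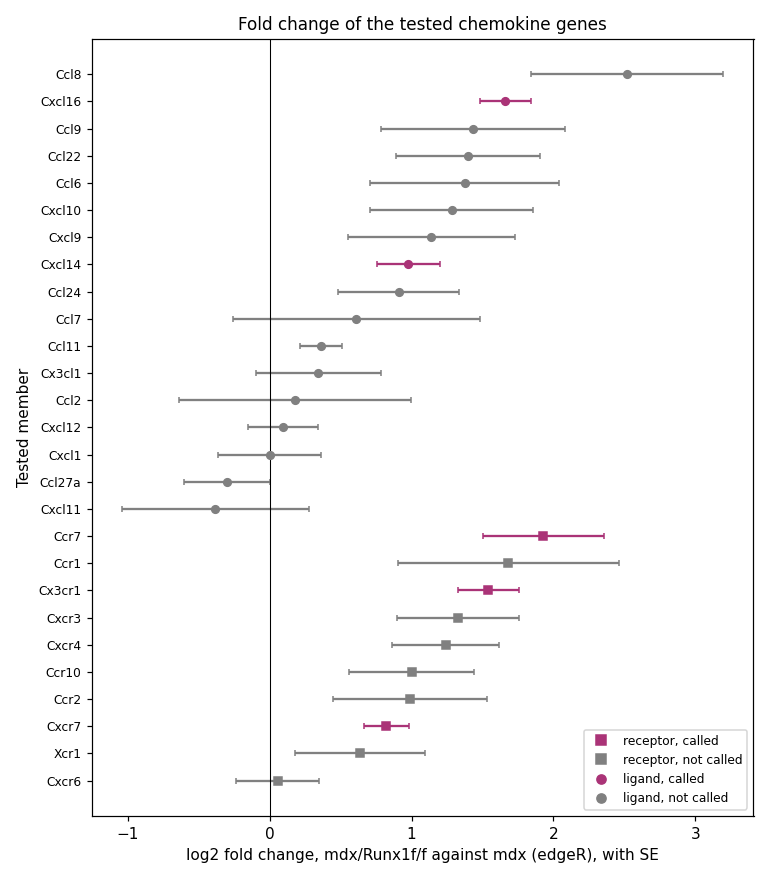
Log2 fold change of 27 of the 28 tested chemokine genes, mdx/Runx1f/f against mdx, by edgeR over 7 libraries, with the standard error as bars. Squares are receptors, circles are ligands, and coloured symbols are the 5 called genes. Cxcl16 at 1.66 has a short bar, while Ccl8 at 2.52 has a long one and is not called.

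Cxcl16, a ligand made as a membrane-bound protein by macrophages, dendritic cells and endothelium, had the smallest p of the members. Its normalised count was 126, 108, 77.3 and 116 in the libraries labelled mdx, against 354, 367 and 286 in those labelled mdx/Runx1f/f. The groups stood far apart, at 107 ± 20.9 (SD, n = 4) against 336 ± 43.3 (SD, n = 3). This was a 3.16-fold rise, or 1.66 on the log2 scale (SE 0.18, adjusted p = 0.00842). Within animals 358 to 363 it was 1.64 and within animals 373 to 375 it was 1.57. Cxcr6, the receptor of Cxcl16 on T cells and innate-like lymphocytes, did not move with it. Its libraries labelled mdx held 22.2, 23.0, 22.1 and 12.8 normalised counts, and the others 24.5, 22.0 and 15.2. The log2 fold change of Cxcr6 was 0.06 (SE 0.29, adjusted p = 0.920), on 13 to 29 reads a library.

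Cx3cr1, the fractalkine receptor of monocytes and resident macrophages, was 2.91-fold higher. It stood at 139, 132, 99.4 and 86.9 normalised counts in the libraries labelled mdx, against 281, 425 and 287 in the others. No library of either group reached the other, and the log2 fold change was 1.54, with SE 0.22 and adjusted p = 0.0138, with 1.40 within animals 358 to 363 and 1.63 within animals 373 to 375. Cxcl16 and Cx3cr1 were the 2 members that were called whichever library was left out. Cx3cl1 encodes fractalkine, the membrane-tethered ligand of this receptor. Its libraries labelled mdx held 203, 267, 379 and 547 normalised counts and the others 249, 330.0 and 748. These ranges overlapped, and the log2 fold change was 0.34, with SE 0.44 and adjusted p = 0.636. The value for Cx3cl1 was -0.28 once mdx/Runx1f/f replicate 3 was left out.

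Cxcr7, now named Ackr3, encodes an atypical receptor that takes up Cxcl12. Its normalised count was 473, 550.4, 559 and 475 in the libraries labelled mdx, against 687, 906 and 1121 in those labelled mdx/Runx1f/f. The libraries labelled mdx kept within a narrow band, below all 3 others. The rise was 1.77-fold (log2 fold change 0.82, SE 0.16, adjusted p = 0.0288). That call held without mdx/Runx1f/f replicate 1 and was lost without mdx replicates 1 to 4 (adjusted p = 0.0517, 0.0602, 0.0706 and 0.0743) or mdx/Runx1f/f replicates 2 and 3 (0.0850 and 0.0503). Cxcl12, the homeostatic ligand of stromal cells that Cxcr7 shares with Cxcr4, showed no such step. It stood at 2967, 3992, 3593 and 5139 normalised counts in the libraries labelled mdx, against 2924, 4084 and 5503 in the others. Its log2 fold change was 0.09, with SE 0.25 and adjusted p = 0.831, and the lowest value of all 7 lay in a library labelled mdx/Runx1f/f.

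Cxcr4, the signalling receptor of Cxcl12 on leukocytes and endothelium, stood between these patterns. The libraries labelled mdx held 228, 127, 176 and 163 normalised counts and the others 316, 689 and 217. Replicate 3 of mdx/Runx1f/f lay below mdx replicate 1, so the groups overlapped. The log2 fold change of 1.24 (SE 0.38) did not pass (adjusted p = 0.0794). It was 1.52 within animals 358 to 363 and 0.36 within animals 373 to 375. Without mdx/Runx1f/f replicate 2 it was 0.63 (adjusted p = 0.230), and without replicate 3 Cxcr4 was called (adjusted p = 0.0476).

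Cxcl14, a chemokine of fibroblasts and epithelia that attracts myeloid cells, was 1.97-fold higher. The libraries labelled mdx held 113, 144, 86.1 and 74.0 normalised counts and the others 208, 213 and 192. The 3 libraries labelled mdx/Runx1f/f lay close together and above the rest (log2 fold change 0.98, SE 0.22, adjusted p = 0.0406). This call was kept without mdx replicate 2. It was lost without mdx replicates 1, 3 and 4 (adjusted p = 0.0586, 0.110 and 0.0773) or mdx/Runx1f/f replicates 1 to 3 (0.0780, 0.121 and 0.0636).

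Ccr7, the receptor that takes mature dendritic cells and naive T cells to lymph nodes, was called on few reads. Its raw count was 4, 5, 3 and 3 in the libraries labelled mdx, against 13, 13 and 22 in the others. In normalised counts this was 3.93 ± 1.01 (SD, n = 4) against 15.5 ± 7.39 (SD, n = 3), and the log2 fold change came to 1.93 (SE 0.43, adjusted p = 0.0387). The call was lost whichever library was left out (adjusted p = 0.0619, 0.0675, 0.104 and 0.0931 without mdx replicates 1 to 4, and 0.0614, 0.0610 and 0.0665 without mdx/Runx1f/f replicates 1 to 3). Ccl19, a ligand of Ccr7, had 3 reads in all 7 libraries together, and its other ligands, read from the near-identical gene copies Ccl21a, Ccl21b and Ccl21c, had 0, 0 and 1. The sources used here do not say how reads that match several copies were counted. At this depth a total of 0 allows up to 3 reads over the 7 libraries.

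**Figure D2:**
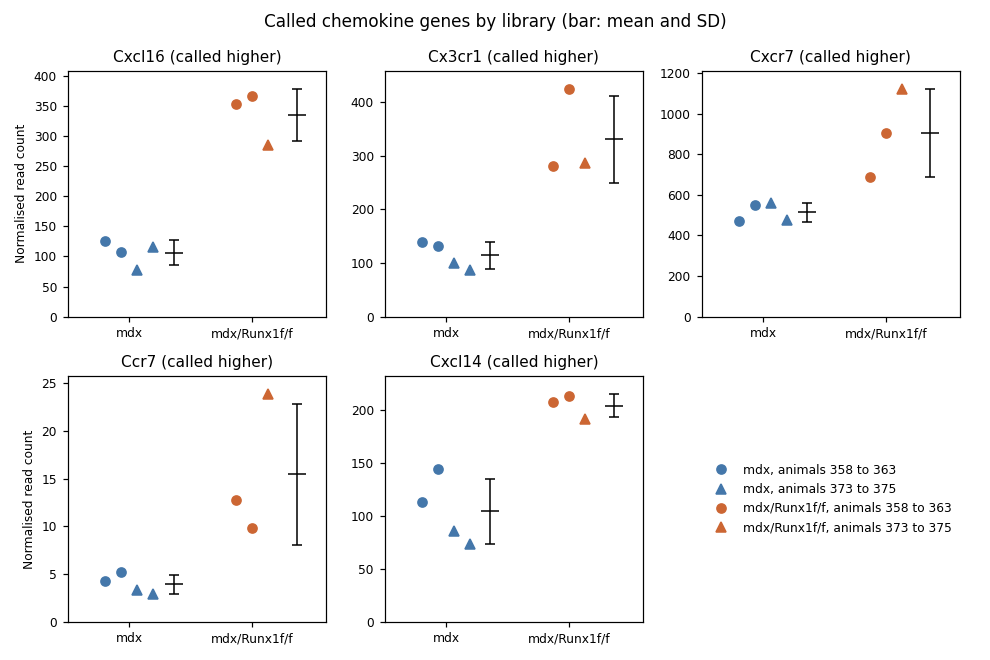
Normalised read count of the 5 called chemokine genes in each library, with the group mean and SD beside the points. Circles are animals 358 to 363 and triangles animals 373 to 375. In each panel the 3 libraries labelled mdx/Runx1f/f lie above the 4 labelled mdx, and the Ccr7 panel spans only 2.96 to 23.9 counts.

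Promoter sequence was read for the members to show what lies before the called genes, since the study asks which genes respond to Runx1. The core bound by Runx proteins was searched here as TGTGGT alone. Forms of it with other letters, such as TGCGGT, were not searched and are not marked. RefSeq gave a start site for 19 of the 28 tested members, 3 of the called genes among them. The 250 bases before each start are printed 5′ to 3′ along the gene, from the GRCm38.p6 build and not the mm9 build of the counts, with each match to the Runx core on either strand in capitals.
Cx3cr1 (chr9:120068297-120068546, minus strand): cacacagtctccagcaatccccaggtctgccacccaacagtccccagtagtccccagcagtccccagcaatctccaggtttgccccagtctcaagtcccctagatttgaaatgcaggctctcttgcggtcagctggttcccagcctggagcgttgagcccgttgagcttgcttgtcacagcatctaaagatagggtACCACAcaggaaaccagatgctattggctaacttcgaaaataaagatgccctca
Cxcr7 (chr1:90203730-90203979, plus strand): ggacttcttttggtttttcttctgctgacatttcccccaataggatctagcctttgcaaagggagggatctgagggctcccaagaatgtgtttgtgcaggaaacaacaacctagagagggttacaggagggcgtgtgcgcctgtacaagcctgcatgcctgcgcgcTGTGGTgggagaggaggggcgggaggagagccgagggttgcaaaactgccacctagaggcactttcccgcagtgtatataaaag
Cxcl14 (chr13:56296552-56296801, minus strand): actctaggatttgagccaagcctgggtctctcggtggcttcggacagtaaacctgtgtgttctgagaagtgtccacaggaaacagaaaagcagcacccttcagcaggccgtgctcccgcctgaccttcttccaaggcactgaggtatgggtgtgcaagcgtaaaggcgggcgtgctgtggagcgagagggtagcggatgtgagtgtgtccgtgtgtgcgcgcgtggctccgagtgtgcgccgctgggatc

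The Cx3cr1 promoter held 1 match to TGTGGT, on the minus strand of the gene. The Cxcr7 promoter held 1 on the plus strand. They started 54 and 84 bases before the start. No match lay in the printed window of Cxcl14. Over the 19 members TGTGGT occurred before 6: Ccr1, Cx3cr1, Cxcl9, Cxcr3, Cxcr6 and Cxcr7. Among all 32851 promoters listed, 14% held it in the same length. The core bound by PU.1, a factor of myeloid cells, was searched as GAGGAA on both strands and occurred before 5 of the 19 and 23.3% of all. The kappaB motif of inflammatory signalling occurred before 3 (Ccl9, Cxcl1 and Cxcl10) and 3.90% of all. Matches were counted for each motif alone, so they may overlap. A match is a match of letters and was not tested for binding.

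Among the CC ligands none was called by edgeR, and 3 of the 9 tested (Ccl8, Ccl22 and Ccl11) had an unadjusted p below 0.05. Ccl8, a monocyte attractant made by macrophages, had the largest fold change of the tested members. It stood at 114, 245, 35.3 and 28.6 normalised counts in the libraries labelled mdx, against 513, 409.6 and 890.3 in the others. The groups did not overlap, yet the libraries spread widely within each, and the log2 fold change of 2.52 (SE 0.68) had an adjusted p of 0.0611. It was 1.37 within animals 358 to 363 and 4.80 within animals 373 to 375, and the test of that difference gave an adjusted p of 0.823 over all genes (unadjusted p = 0.000719). Ccl8 was called by DESeq2 (adjusted p = 0.0217), by limma-voom (0.0341) and with the number series as a term (0.0433). Without mdx replicate 2 it was also called by edgeR, with a log2 fold change of 3.35 (adjusted p = 0.0375).

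The CC ligand genes Ccl2, Ccl7, Ccl11, Ccl12, Ccl8 and Ccl1 follow each other in the RefSeq gene order. Among them only Ccl8 had groups without overlap. Within the group labelled mdx, Ccl2 and Ccl7 were, like Ccl8, highest in replicate 2 and lowest in replicates 3 and 4. Ccl2, the main ligand that draws monocytes through Ccr2, stood at 42.3, 157, 13.2 and 15.8 normalised counts in the libraries labelled mdx, against 75.4, 86.5 and 29.3 in the others. Its highest library was mdx replicate 2, above all 3 labelled mdx/Runx1f/f. The log2 fold change was 0.18, with SE 0.82 and adjusted p = 0.907, and 1.43 without mdx replicate 2. Ccl7, a second ligand of Ccr2, likewise had its highest value in mdx replicate 2. Its libraries labelled mdx held 27.5, 77.3, 5.52 and 3.95 normalised counts and the others 62.7, 46.3 and 20.6 (log2 fold change 0.61, SE 0.87, adjusted p = 0.674, and 1.82 without mdx replicate 2). Ccl11, the eosinophil attractant eotaxin, varied least of this run. It held 275, 275, 212 and 247 normalised counts in the libraries labelled mdx, against 364, 267 and 336 in the others (log2 fold change 0.36, SE 0.15, adjusted p = 0.155). Ccl12 was below the filter, at 4, 7, 1 and 3 raw counts against 28, 21 and 3, and Ccl1 had 4 reads in all.

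Ccl6 and Ccl9, myeloid ligands of Ccr1 whose genes are neighbours, went up and down together from library to library. Ccl6 stood at 568, 704, 129 and 118 normalised counts in the libraries labelled mdx, against 687, 1635 and 620.3 in the others. Ccl9 stood at 361, 441, 89.4 and 77.0 against 493, 1080.1 and 377. For both genes mdx/Runx1f/f replicate 2 was the highest library and mdx replicates 3 and 4 were the lowest. Neither passed the test (log2 fold change 1.37 with SE 0.67 and adjusted p = 0.211 for Ccl6, and 1.43 with SE 0.65 and adjusted p = 0.183 for Ccl9). With the animal number series as a term in the fit both were called (adjusted p = 0.0460 and 0.0340). Without mdx/Runx1f/f replicate 2 their log2 fold changes were 0.79 and 0.86.

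The receptors of these ligands on monocytes and macrophages spread in the same way. Ccr2, which monocytes need to leave the marrow and enter tissue, held 578, 937, 226 and 192 normalised counts in the libraries labelled mdx, against 873, 1371 and 618 in the others. The groups overlapped, since mdx replicate 2 lay above 2 libraries labelled mdx/Runx1f/f, and the log2 fold change was 0.99, with SE 0.54 and adjusted p = 0.262. Ccr1 held 67.6, 82.5, 12.1 and 10.9 against 54.8, 265 and 93.3 normalised counts (log2 fold change 1.68, SE 0.78, adjusted p = 0.190). Its lowest library labelled mdx/Runx1f/f lay below mdx replicates 1 and 2.

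Ccl5, a ligand that draws T cells and monocytes, had reads in every library. It was below the filter, at 2, 7, 5 and 8 raw counts in the libraries labelled mdx, against 38, 10 and 27 in the others. In normalised counts mdx/Runx1f/f replicate 2, at 7.58, lay below mdx replicate 4, at 7.90. Ccl3 and Ccl4, inflammatory ligands of activated macrophages, had 3 and 4 reads in all 7 libraries together.

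**Figure D3:**
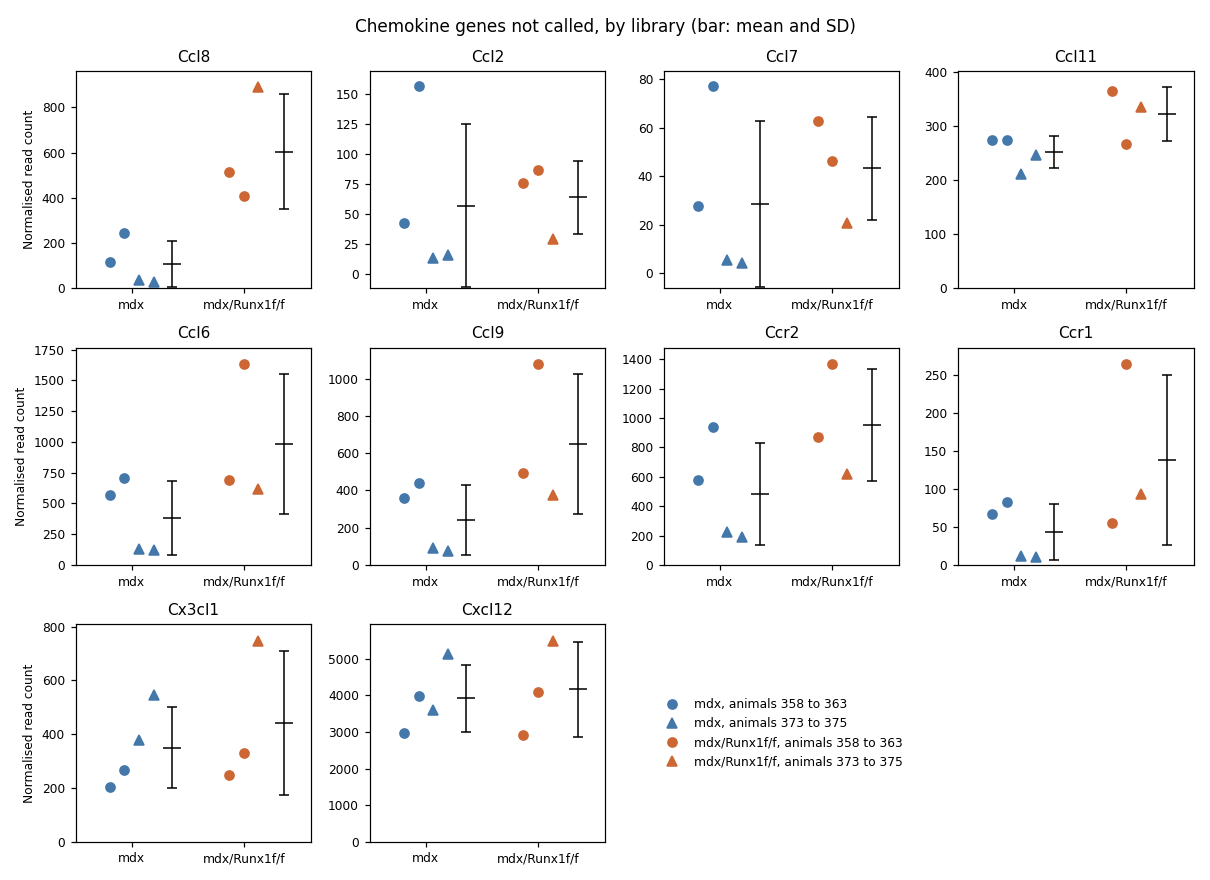
Normalised read count of 10 chemokine genes that were not called, in each library, with the group mean and SD beside the points. Circles are animals 358 to 363 and triangles animals 373 to 375. In the libraries labelled mdx the triangles lie below the circles for Ccl8, Ccl2, Ccl7, Ccl11, Ccl6, Ccl9, Ccr2 and Ccr1, and above them for Cx3cl1.

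Within the group labelled mdx the 2 animal number series parted for many of these genes. In 14 of the 28 tested members, or 50%, mdx replicates 1 and 2 both lay above replicates 3 and 4, against 25.7% of all tested genes, and in 3 (Ccr10, Cx3cl1 and Xcr1), or 10.7%, both lay below, against 24.6% of all. Means of the first pair were 11.1 times those of the second for Ccl7, 6.85 times for Ccl2, 6.53 times for Ccr1, 5.62 times for Ccl8 and 5.14 times for Ccl6. Cxcr7 and Cxcl16 hardly parted, at 0.990 and 1.21 times. Fitted alone, animals 358 to 363 (2 against 2) gave 0 called members by edgeR and 0 calls in the whole table, though 11 of 29 members tested had an unadjusted p under 0.05, all 11 higher (37.9%, against 11.8% of all genes higher at that p and 19% in either direction). Animals 373 to 375 alone (2 against 1) gave 13 members called higher, beside 9.53% of all genes. In that fit the lone library labelled mdx/Runx1f/f is assumed to vary like the other 2. The labels do not say what sets the number series apart.

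Of the ligands and receptors of type 2 and eosinophil responses, none was called. Ccl22, a dendritic cell and macrophage ligand of Ccr4, stood at 14.8, 3.13, 3.31 and 7.90 normalised counts in the libraries labelled mdx, against 22.5, 14.4 and 21.7 in the others (log2 fold change 1.40, SE 0.51, adjusted p = 0.116). Without mdx replicate 1 it was called (log2 fold change 1.98, adjusted p = 0.0487). The gene of the other Ccr4 ligand, Ccl17, was below the filter at 4 to 11 raw counts a library, and Ccr4 itself had 3 reads in all. Ccl24, a second eotaxin, ranged from 7.31 to 30.6 against 26.0 to 40.2 (log2 fold change 0.91, SE 0.43, adjusted p = 0.196). Ccr3, the eotaxin receptor, was below the filter. Its raw count was 1, 0, 0 and 1 in the libraries labelled mdx, against 14, 9 and 4 in the others, so no library overlapped. Ccl26 had 0 reads.

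Cxcl9, Cxcl10 and Cxcl11, interferon-induced ligands that draw activated T and NK cells through Cxcr3, differed among themselves. Cxcl9 held 10.6, 53.3, 35.3 and 61.2 normalised counts in the libraries labelled mdx, against 101, 34.1 and 131 in the others (log2 fold change 1.14, SE 0.59, adjusted p = 0.236). Cxcl10 held 6.34, 27.2, 13.2 and 15.8 against 63.7, 14.4 and 36.9 (log2 fold change 1.28, SE 0.58, adjusted p = 0.180). For both, mdx/Runx1f/f replicate 2 was the low library of its group, the reverse of its place for Ccl6 and Ccr2. Cxcl11 was higher there, at 35.6, than in replicate 1, at 3.92 (log2 fold change over all libraries -0.38, SE 0.66, adjusted p = 0.734). Cxcr3 held 10.6, 7.31, 3.31 and 2.96 against 15.7, 16.7 and 13.01, with no overlap (log2 fold change 1.32, SE 0.43, adjusted p = 0.0922), on 3 to 22 reads a library.

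Genes of neutrophil attraction were near the limit of detection. Cxcl1 was the tested one, at 6.34 to 16.6 normalised counts in the libraries labelled mdx and 9.10 to 18.4 in the others (log2 fold change -0.0010, SE 0.37, adjusted p = 0.999). Cxcl2, Cxcl3 and Cxcl5 had 9, 12 and 25 reads in all. Their receptor gene Cxcr2 had 27 reads, 17 of them in mdx replicate 2, and Cxcr1 had 0. Neutrophil markers were also low, at a summed 29.6 to 208 normalised counts in the libraries labelled mdx and 71.6 to 264 in the others. Csf3r was the largest part of that sum in every library, at 17.8 to 161 against 51.0 to 228. Retnlg, below the filter, had 0, 2, 1 and 3 raw counts against 14, 17 and 4, without overlap. The other neutrophil markers overlapped, and S100a8 had a log2 fold change of -0.19.

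The remaining tested members were homing genes of skin, gut and dendritic cells. Ccl27a, a skin ligand with near-identical copies in the mouse genome, ranged from 10.6 to 19.9 normalised counts in the libraries labelled mdx and from 10.8 to 15.7 in the others (log2 fold change -0.30, SE 0.31, adjusted p = 0.543). Ccr10, its receptor, held 2.11, 5.22, 7.73 and 8.88 against 15.7, 9.86 and 10.8, without overlap (log2 fold change 1.00, SE 0.44, adjusted p = 0.176). Xcr1, which marks cross-presenting dendritic cells, ranged from 4.18 to 18.8 against 14.4 to 23.5 (log2 fold change 0.63, SE 0.46, adjusted p = 0.384). Of the 28 members below the filter, 7 had 0 reads in all libraries, 11 had fewer than 20 and 10 had at least 20. Besides those given above, the last group held Ccr9 (59 reads), Cxcl13 (27), Cxcr5 (22) and Ccl25 (21). Cxcl13, the B cell attractant, stood at 3, 3, 1 and 0 raw counts against 7, 8 and 5.

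Markers of macrophages and monocytes were compared with these genes. The 15 macrophage and monocyte markers had a median log2 fold change of 1.70, and 4 of them rose (C1qa, C1qb, C1qc and Lyz1). Their summed normalised count was 17059, 9337, 3922 and 4908 in the libraries labelled mdx, against 22565, 44930.2 and 16236 in the others. Here mdx replicate 1 lay above mdx/Runx1f/f replicate 3, so the groups overlapped. Set per 1000 counts of that sum, Cx3cr1 was 8.18 to 25.3 in the libraries labelled mdx and 9.45 to 17.7 in the others, and Cxcl16 was 7.37 to 23.5 against 8.17 to 17.6. The groups also overlapped on this scale for Ccr2 (33.9 to 100.3 against 30.5 to 38.7), Ccl6 (24.1 to 75.4 against 30.4 to 38.2) and Ccl8 (5.83 to 26.3 against 9.12 to 54.8). These genes were picked for this scale after their values were seen. The sum itself ran from 3922 to 17059 within the libraries labelled mdx, so overlap on this scale can arise from the sum alone. Lyz2 was its largest part in every library, at 6554 normalised counts in mdx replicate 1 and 17567 in mdx/Runx1f/f replicate 2. In whole muscle, more cells of a type and more RNA in each cannot be told apart, and the part of the markers in the chemokine results was not tested.

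**Figure D4:**
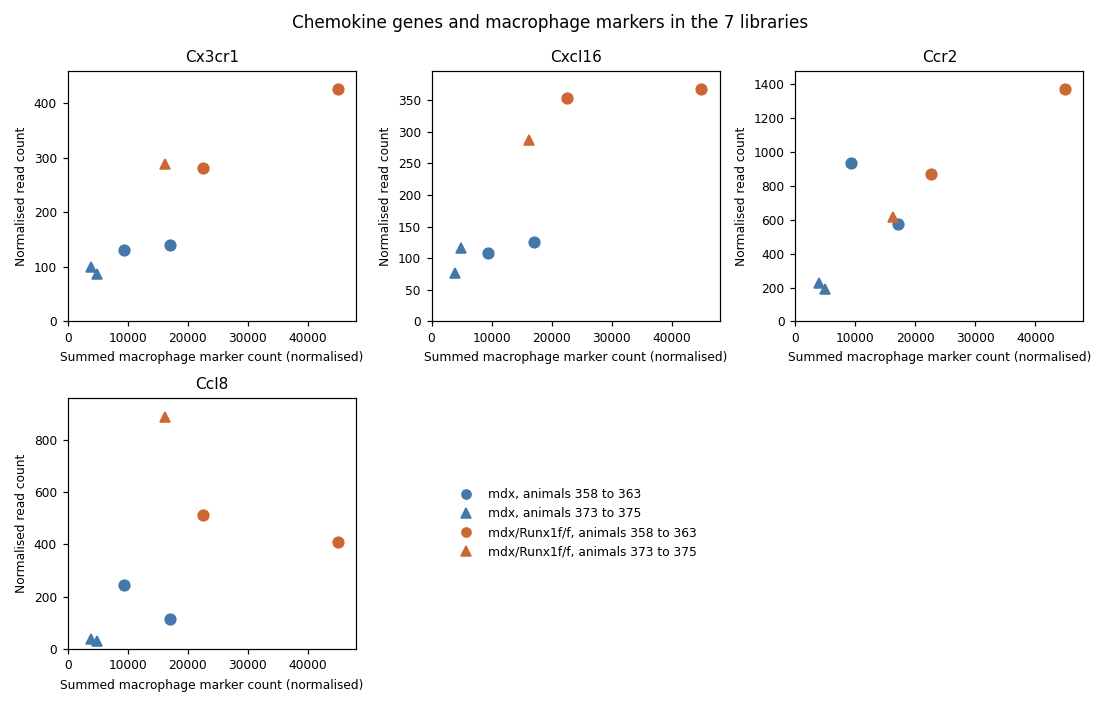
Normalised read count of 4 chemokine genes (vertical) against the summed normalised count of 15 macrophage and monocyte markers (horizontal) in the 7 libraries. Both axes start at 0 and are linear. Ccr2 ranges from 192 to 937 in the libraries labelled mdx and overlaps the range of 618 to 1371 in the others, while Cxcl16 forms a lower band of 77.3 to 126 in the libraries labelled mdx and an upper band of 286 to 367 in the others.

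Other marker sums gave the setting of the samples. T and NK cell markers summed to 20.9 to 29.8 normalised counts in the libraries labelled mdx and 72.1 to 107 in the others. Cd4 was the risen one of 2 tested, and 6 of 9 had under 20 reads in all. Of that sum Cd4 alone held 7.31 to 12.1 in the libraries labelled mdx and 37.9 to 59.6 in the others. Both tested genes, Cd4 and Cd2, did not reach the filter's minimum in 3 libraries labelled mdx, so the Cd4 call carries that selection. Dendritic cell markers summed to 128 to 201 against 363 to 464, and of these Itgax alone rose (22.7 to 79.2 against 155 to 271). Cd209a and Batf3 did not overlap between the groups but were not called. Flt3, Clec9a and Zbtb46 overlapped, and Zbtb46 had a log2 fold change of 0.05. Fibro-adipogenic progenitor markers, which include stromal cells that make Cxcl12 and Cxcl14, summed to 19958 to 29923 against 58448 to 67442, and 5 of 7 rose. Adipocyte markers rose in 3 of 3 (553 to 2025 against 165 to 403). Blood endothelial markers overlapped between the groups, and 0 of 5 were called by edgeR or had an unadjusted p under 0.05. The slow-fibre genes that define the soleus were abundant in every library, with a lower sum in the libraries labelled mdx/Runx1f/f (105449 to 375815 against 402045 to 705701), and 0 of 6 were called by edgeR, with 3 at an unadjusted p under 0.05. Genes of all muscle fibres also had a lower sum without overlap (761047 to 903309 against 922144 to 1197356). Of these, 0 of 4 were called by edgeR or at an unadjusted p under 0.05. Only Acta1, the most abundant of them, lay apart by itself (486965 to 566959 against 590360 to 773482). Ckm, Des and Mb overlapped between the groups. The fast-fibre gene Myh4 stood at 739, 2019, 8982 and 3277 normalised counts in the libraries labelled mdx. In those labelled mdx/Runx1f/f it stood at 246072, 53268 and 1293 (log2 fold change 4.76, SE 1.455, adjusted p = 0.0806 by edgeR). In mdx/Runx1f/f replicate 1, Myh4 and the fast-fibre gene Myh1 (160034) lay above the slow-fibre gene Myh7 (40503). What set these libraries apart in fibre genes was not tested. Marker sums of eosinophils and mast cells, B cells, lymphatic endothelium, smooth muscle and pericytes, satellite cells, fast fibres and red blood cells overlapped between the groups. Some single genes of these lists did not. The lymphatic gene Reln rose (log2 fold change 0.834, adjusted p = 0.0443 by edgeR). Without being called, Pdpn (0.945) lay higher without overlap and Prox1 (-0.998) lower. The mast cell genes Mcpt4 (0.699) and Cma1 (0.89) and the smooth muscle gene Acta2 (0.778) also lay higher without overlap and were not called. All other genes of these lists overlapped. The sums of tendon (649 to 1361 against 1917 to 3504) and Schwann cell markers (962 to 1461 against 1800 to 1903) were higher without overlap in the libraries labelled mdx/Runx1f/f. In each, 1 of 3 markers rose, Comp and Mbp. The tendon markers differed among themselves: Tnmd overlapped between the groups, and Scx had a log2 fold change of -0.47 and was not called. Of the eosinophil genes, Epx had 0 reads and Prg2 had 2 in all. Siglec5 had 2, 1, 0 and 2 raw counts in the libraries labelled mdx, against 11, 7 and 1 in the others. Whether eosinophils were present was not tested.

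The other genes of the pathway were read from a list of 68 symbols for further ligands, atypical receptors, signal transducers, inducers and binding partners, 64 of them in the table. Of the 61 tested, 14 rose and 0 fell, or 23.0% against the 5.10% called higher in the whole table, and 21 more (34.4%) had an unadjusted p below 0.05, all higher, against 12% of all genes uncalled and higher at that p and 22.5% in either direction. The median log2 fold change of the list was 0.73. The 14 became 3 without mdx/Runx1f/f replicate 2, 5 and 7 without mdx replicates 3 and 4, and 8 without mdx replicate 2 or mdx/Runx1f/f replicate 1. Arrb1, which encodes a beta-arrestin, a type of protein that desensitises chemokine receptors, had the smallest p. Its normalised count was 467, 382, 395 and 397 in the libraries labelled mdx, against 844, 1028 and 909.9 in the others, a log2 fold change of 1.18 (SE 0.11, adjusted p = 0.00795). Adrbk2, a kinase of active receptors, lay at 135 ± 7.56 (SD, n = 4) against 222 ± 2.62 (SD, n = 3), a difference of 0.73 on the log2 scale. Darc, an atypical receptor that holds inflammatory chemokines on venules, had a log2 fold change of 1.34. Rarres2, which encodes the attractant chemerin, had 0.89, and Dpp4, a protease that clips the ends of many chemokines, had 1.09. Cd74, the invariant chain that also serves as a receptor for Mif, had 1.77, the kinase gene Src 0.87 and the heparan sulphate proteoglycan gene Sdc1 1.04. Further risen genes were Gng12, Rgs10, Pik3cg, Prex1 and Prkcb.

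The authors' deposited table, made with DESeq2, gave an adjusted p for 32 of the 56 members, of which 10 were below 0.05, all higher, beside 11.2% of all genes with a value. They included the 5 called above with Ccl8 (adjusted p = 0.00473), Ccl5 (0.0159), Cxcr4 (0.0209) and Cxcr3 (0.0464) in the authors' deposited table. That table differs from the edgeR fit in tool, version and filter, and which of these sets the calls apart was not tested.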

How the data were processed

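RNA of whole soleus was read as 1 deposited table. The authors made raw read counts per gene with TopHat2 2.0.10 and HTSeq on mm9, per the submitters' processing notes, and deposited beside them normalised counts, a signal scaled by 1 size factor for each library. The table also holds the authors' log2 fold change and p-value after adjustment, per the file headers, from DESeq2 1.6.3, per the submitters' processing notes. The sources used here do not give the annotation, the strand setting or the handling of multiply mapped reads. Columns headed by animal number were joined to samples through the titles, which name 7 animals. All pairs of libraries differed beyond sampling noise (lowest chi-square 15.8 per degree of freedom).

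In R 4.3.3, edgeR 4.0.16 was run on the raw counts with filterByExpr, TMM scaling and its quasi-likelihood test, with no term but group, and p-values were adjusted by Benjamini-Hochberg over 14033 genes. Standard errors are the log2 fold change over the root of F. Normalised counts in the text are the authors'. Tested on simulated data of 14033 genes, 200 of them changed, this step recovered 54% of 2-fold and 88% of 4-fold changes. In the data 4135 genes had an unadjusted p under 0.05 by edgeR, so these rates need not hold there. Alternatives used DESeq2 1.42.0, limma 3.58.1 (voom), other filters, scalings, covariates and subsets. Precision is limited by 7 animals and, for members under about 20 reads a library, by counting. Tested members are named, except that a member and a pathway gene are not reported here; called members, the next 10 by p and a fixed set of well-known chemokine genes are given by library, and the 8 pathway genes with the smallest p are given with their fold change. Members with fewer than 20 reads in all and the further pathway genes were named after their values were seen. Protein sequences are not used here. The members and lists were chosen with earlier results of these data known. Promoters came from RefSeq (GRCm38.p6).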

Additional observations from a re-analysis of the deposited data

Results flagged for a closer look

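In the group of 4 libraries labelled mdx, Cxcr6 stood at 12.8 normalised counts in mdx replicate 4 and between 22.1 and 23.0 in the other 3. The gap to the nearest of the others was 0.912 of the group's range, above the critical value of Dixon's test for 4 samples. It rests on 13 raw counts. Of 29 members examined in this way it was the 1 that passed, and chance alone gives about 1 in 20.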

How the results depend on the processing

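The count of 5 members called higher became 2 with the replicate block, 9 with the number series as covariate, 0 in animals 358 to 363 alone (edgeR, 11 at an unadjusted p under 0.05), 13 in animals 373 to 375 alone, and 2 to 4 when a library was left out. Grouped by the description field, a comparison added after the data were seen, 0 members were called by edgeR, with 6 of 28 at an unadjusted p under 0.05 (21.4%, against 11.9% of all genes), 5 of them lower in animals 373 to 375. No alternative grouped by title called a member lower. The 14 pathway genes called higher became 27 with DESeq2, 6 with the replicate block, 27 with the covariate, 0 and 27 in the series alone, and 3 to 15 with a library left out. Over all genes, 715 higher and 260 lower became 1491 and 905 with DESeq2, 240 and 80 with the replicate block, 1246 and 582 with the covariate, 0 and 0 in animals 358 to 363 alone (edgeR, 2669 at an unadjusted p under 0.05), 1361 and 440 in animals 373 to 375 alone, and 173 to 641 and 17 to 209 with a library left out. The cause was not tested. Deviations from group means correlated across genes at -0.0070, 0.241 and 0.275 for same-numbered samples, within the range of -0.46 to 0.506 for differently numbered ones. So few pairs cannot decide whether same-numbered samples pair. With the block Cxcl16 and Cx3cr1 stayed called (both adjusted p = 0.0467), and Cxcr7, Ccr7 and Cxcl14 did not (adjusted p = 0.0518, 0.110 and 0.0646).

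Signs turned in 6 uncalled members. Ccl2 was at -0.28 in animals 358 to 363 alone and -0.14 to 1.43 with a library left out. Cx3cl1 was at -0.28 to 0.65 with a library left out, Cxcl11 at -1.17 to 0.086 and Cxcl12 at -0.17 to 0.29. Cxcl1 was at 0.037 with the block, 0.11 with the covariate, 0.34 in animals 373 to 375 alone and -0.38 to 0.20 with a library left out. Cxcr6 was at -0.13, -0.035, -0.18 and -0.11 to 0.21 in these settings.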
